A study of Mus musculus with 24 samples.

Results

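Integrin subunits through which the cells of brain vessels and their glial sheath hold on to the surrounding matrix were followed in mouse brain microvessels after stroke. They comprised 9 genes, the alpha subunits Itga1, Itga5, Itga6, Itga7 and Itgav and the beta subunits Itgb1, Itgb3, Itgb5 and Itgb8, which were found by their symbols among the 17270 genes of the expression table. All 9 passed the filter on low values (a mean above 5 normalized counts over all libraries), as did 15982 genes in total. They were selected on their measured differences between tMCAO and sham libraries of the ipsilateral hemisphere in these data, so all values of the ipsilateral hemispheres after stroke are given here as a description and carry no p-value for the members.

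Integrins are receptors made of an alpha and a beta chain that bind matrix proteins outside the cell and couple them to the actin cytoskeleton inside. In brain vessels, endothelial cells and pericytes sit on a shared basement membrane rich in laminins and collagen IV, on whose outer face the astrocyte endfeet are anchored. The beta1 chain pairs with many alpha chains, whereas the alpha V chain pairs with beta1, beta3, beta5 and beta8, and alpha V beta8 on astrocytes is known for activating latent TGF-beta beside the vessels.

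RNA of mouse brain microvessels (MBMVs), isolated vessel fragments, was sequenced in 24 libraries, 3 in each of 8 groups. Male C57BL/6J mice aged 10 to 12 weeks underwent transient middle cerebral artery occlusion (tMCAO, a filament held at the origin of the middle cerebral artery for 60 min) or a sham operation in which the filament was withdrawn at once. At 24 h or 7 days the hemisphere of the operated side (ipsilateral) and the opposite hemisphere (contralateral) were taken, which gave the groups sham contralateral, sham ipsilateral, tMCAO contralateral and tMCAO ipsilateral at each time. Each library held vessels of 3 pooled hemispheres, so 9 animals stood behind a group, and the spread between libraries is the spread between pools. Per the paper, more samples were made than analysed, and some were identified as outliers. The spread is thus that of the libraries kept. No group was free of surgery.

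The authors deposited DESeq2-normalized counts as whole numbers, with totals of 15924780 to 18787932 per library and an estimated 13693168 to 20030715 reads. Endothelial markers (12 of 12 found) summed to 283881 to 404183 normalized counts and mural cell markers (9 of 9) to 68353 to 166057, so vessel cells were present in every library. Astrocyte markers (8 of 8) summed to 9892 to 47324, neutrophil and monocyte markers (8 of 8) to 253 to 6701, and platelet markers (6 of 7 found) to 70 to 302. None of these panels held a gene at 0 in all libraries. In pooled tissue, fewer cells of a type and less RNA per cell cannot be told apart. The tMCAO contralateral library 1 at 7 days stood apart with the highest astrocyte markers (47324), and its values are named where they bear on a result.

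The promoters of Itga5 and Itgb1 are shown because their products form the fibronectin receptor alpha5 beta1 and the log2 fold changes of their mRNAs between tMCAO and sham ipsilateral libraries at 24 h were 1.49 and 0.32. Both are the 250 bases before the RefSeq start of the gene (GRCm38.p6), written in the direction of transcription. The first lies on the minus strand at chr15:103366792-103367041 and the second on the plus strand at chr8:128685404-128685653.
Itga5: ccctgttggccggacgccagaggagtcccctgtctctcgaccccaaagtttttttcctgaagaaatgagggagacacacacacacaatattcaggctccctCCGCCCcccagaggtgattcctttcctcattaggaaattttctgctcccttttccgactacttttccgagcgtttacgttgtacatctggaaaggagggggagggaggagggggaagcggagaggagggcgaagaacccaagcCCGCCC
Itgb1: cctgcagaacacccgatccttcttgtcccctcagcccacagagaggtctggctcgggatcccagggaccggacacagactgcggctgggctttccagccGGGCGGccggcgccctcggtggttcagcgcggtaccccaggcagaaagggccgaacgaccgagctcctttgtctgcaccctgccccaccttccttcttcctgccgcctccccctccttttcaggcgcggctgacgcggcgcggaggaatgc
Capitals mark GC boxes, GGGCGG on either strand, the motif bound by Sp1-type factors. There were 2 in Itga5, 1 in Itgb1 and 3 in Itgb5, and 32.7% of 32851 mouse promoters of this length held at least 1. The AP-1 site TGANTCA (6.75% of promoters), the cAMP response element TGACGTCA (1.55%) and the core ACGTG of the hypoxia response element (16.6%), searched on both strands and none of them contained in another, were not in the 250 bases of the 6 members for which a promoter was at hand (Itga1, Itga5, Itgav, Itgb1, Itgb5 and Itgb8). The genes of Itga6, Itga7 and Itgb3 had no entry in the promoter table. The 250 bases of Itgb8, chr12:119238277-119238526, lay inside that gene as the deposited table places it (119158022 to 119238802, minus strand). They are therefore not upstream of its start there.

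Per kilobase of exon, the order of the members was led by Itgb1, the common beta chain, with a median of 4593 normalized counts per kb over the 18 libraries other than tMCAO ipsilateral (4150 to 5439). Its lowest value lay above the highest of every other member. Itga6, a laminin-binding chain abundant in brain endothelium, followed with 1263 (870.4 to 2125). Itgb5 (670.9), Itga1 (615.8), Itga7 (379.9) and Itga5 (292.2) came next, and each of these overlapped its neighbour in the order. Below them and apart stood Itgav with 116.5 (80.52 to 152.7), then Itgb3 with 41.06 (26.63 to 55.5) and Itgb8 with 11.66 (6.545 to 29.28), whose ranges overlapped each other. The alpha V partner beta5 therefore held most of the beta3, beta5 and beta8 mRNA per kb, 87.78% to 94.45% in those 18 libraries. These levels compare lengths of exons in the annotation and not protein.

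**Figure D1:**
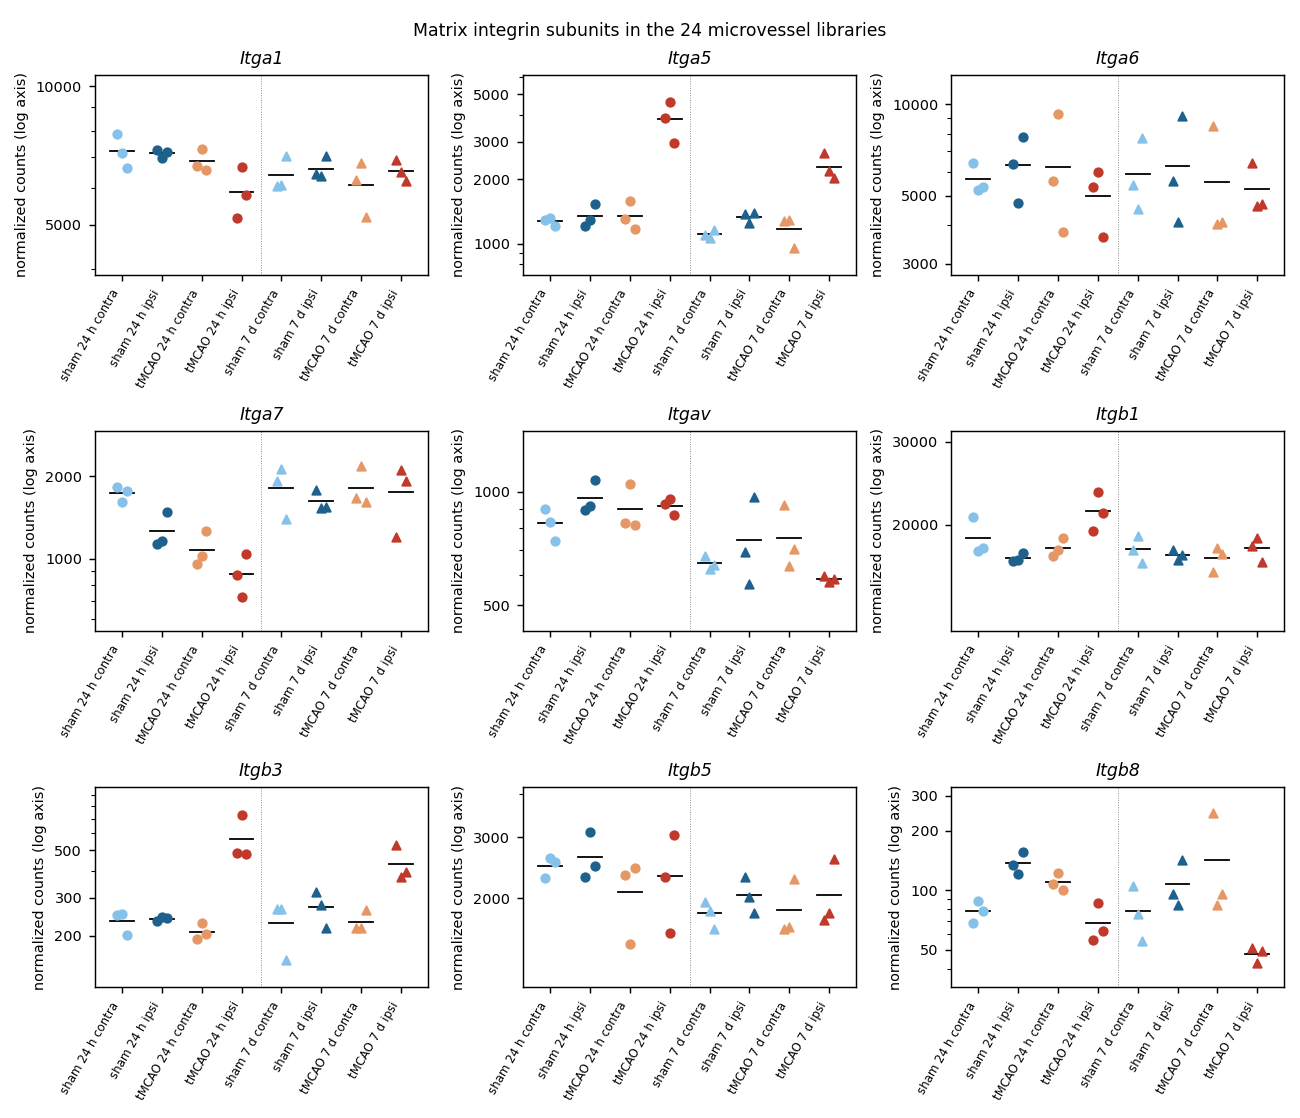
Normalized counts (log axis) of the 9 integrin subunits in the 8 groups; each point is 1 library, circles are 24 h and triangles 7 days, and the black line is the mean of the 3 libraries. Itga5 and Itgb3 were above all other libraries in the 6 tMCAO ipsilateral libraries, whereas Itgb8 at 7 days was below all others at 43 to 51.

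Itga5, the alpha chain of the fibronectin receptor, had the largest difference of the members after stroke at 24 h, while at 7 days that of Itgb8 was larger (ENSMUSG00000000555, chromosome 15 from 103344286 to 103366763, minus strand, mm10). At 24 h its normalized counts in the tMCAO ipsilateral libraries were 3893, 4587 and 2963, against 1208, 1291 and 1538 in the sham ipsilateral, 1301, 1575 and 1168 in the tMCAO contralateral and 1294, 1314 and 1213 in the sham contralateral libraries. At 7 days they were 2669, 2177 and 2023 in the tMCAO ipsilateral libraries, 1375, 1251 and 1385 in the sham ipsilateral, 1278, 1283 and 950 in the tMCAO contralateral and 1096, 1064 and 1152 in the sham contralateral libraries. No stroke ipsilateral library of either time overlapped any of the 18 others, which lay between 950 and 1575, and those of 24 h lay above those of 7 days. Relative to sham ipsilateral, the level was 2.8-fold higher at 24 h (log2 fold change 1.49, SE 0.15) and 1.7-fold higher at 7 days (0.77, SE 0.15). The 3 genes most like it over the 24 libraries were Ecscr (Pearson r = 0.973), Hcls1 (0.967) and Cmtm3 (0.962).

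Itgb3, the beta chain that pairs with alpha V on vessels and with alpha IIb on platelets, went the same way at a much lower level (ENSMUSG00000020689, chromosome 11 from 104608000 to 104670476, plus strand). The tMCAO ipsilateral libraries held 486, 727 and 482 normalized counts at 24 h and 526, 376 and 395 at 7 days. The sham ipsilateral libraries held 234, 245 and 241 at 24 h and 321, 279 and 218 at 7 days. Contralateral values were 194, 230 and 204 after tMCAO and 250, 252 and 201 after sham at 24 h, and 217, 217 and 265 after tMCAO and 268, 267 and 154 after sham at 7 days. Each stroke ipsilateral library was above each of the other 18, while the 2 times overlapped. The level was 2.3-fold that of sham ipsilateral at 24 h (log2 fold change 1.21, SE 0.20) and 1.59-fold at 7 days (0.67, SE 0.20). The call at 7 days was lost without sham ipsilateral library 2 (0.69) or 3 (0.51), without tMCAO ipsilateral library 1 (0.52) and with only the compared groups in the fit (0.67). Over the 24 libraries Pdlim1 (r = 0.936), Cdt1 (0.902) and Pigt (0.901) were most like it. Itga5 and Itgb3 themselves correlated with r = 0.877 over the 24 libraries, but with r = 0.25 for the deviations from the group means.

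Itgb8, the beta chain of alpha V beta8 on astrocytes, was lower after stroke (ENSMUSG00000025321, chromosome 12 from 119158022 to 119238802, minus strand). Its normalized counts were 56, 86 and 62 in the tMCAO ipsilateral libraries at 24 h and 51, 43 and 49 at 7 days. The sham ipsilateral libraries held 134, 120 and 156 at 24 h and 96, 84 and 142 at 7 days, without overlap with the stroke libraries at either time. In the contralateral hemispheres there were 107, 122 and 100 after tMCAO and 68, 88 and 78 after sham at 24 h, and 246, 84 and 96 after tMCAO and 105, 76 and 55 after sham at 7 days. The stroke libraries of 7 days were thus below all others, but those of 24 h overlapped the sham contralateral libraries of the same time. Relative to sham ipsilateral the log2 fold change was -1.01 (SE 0.31) at 24 h and -1.12 (SE 0.31) at 7 days. These are the lowest counts among the members and have the second largest SE. The call at 24 h was lost without sham ipsilateral library 3 (-0.91) or tMCAO ipsilateral library 1 (-0.89), and that at 7 days without sham ipsilateral library 3 (-0.90).

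Counted over the members, 2 were called higher (Itga5 and Itgb3) and 1 lower (Itgb8) against sham ipsilateral at 24 h, and the same 3 genes in the same directions at 7 days. At 7 days the count was 1 to 3 with 1 library left out, with Itga5 alone called without sham ipsilateral library 3. A call here is a Benjamini-Hochberg adjusted p under 0.05 in limma with a fold change beyond 1.5 either way. Of all 15982 genes, 18.3% were called at 24 h (10% higher, 8.23% lower) and 13.2% at 7 days (3.27% higher, 9.95% lower). Because the members were chosen with this contrast known, their count is not read against these shares. The median log2 fold change of the 9 members was -0.22 at 24 h and -0.01 at 7 days, beside -0.02 and 0.03 over all genes tested. Without regard to size, 3 members lay above and 3 below the sham ipsilateral libraries without overlap at 24 h (49% of all genes did not overlap) and 2 above and 1 below at 7 days (30%). When the opposite hemisphere of the same surgery served as reference, Itga5 (1.49 at 24 h and 0.97 at 7 days) and Itgb3 (1.40 and 0.88) were called higher at both times. Itgb8 (-0.70 and -1.39) was called lower at 7 days, and did not overlap at 24 h. Its value against the contralateral hemisphere at 7 days was -0.90 without tMCAO contralateral library 1, which held 246 normalized counts, and was still called. In that contrast 13.6% of all genes were called at 24 h (8.51% higher, 5.14% lower) and 13% at 7 days (3.03% higher, 9.98% lower), and the libraries of 40.8% and 25.3% did not overlap. It shares the stroke ipsilateral libraries with the contrast to sham.

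**Figure D2:**
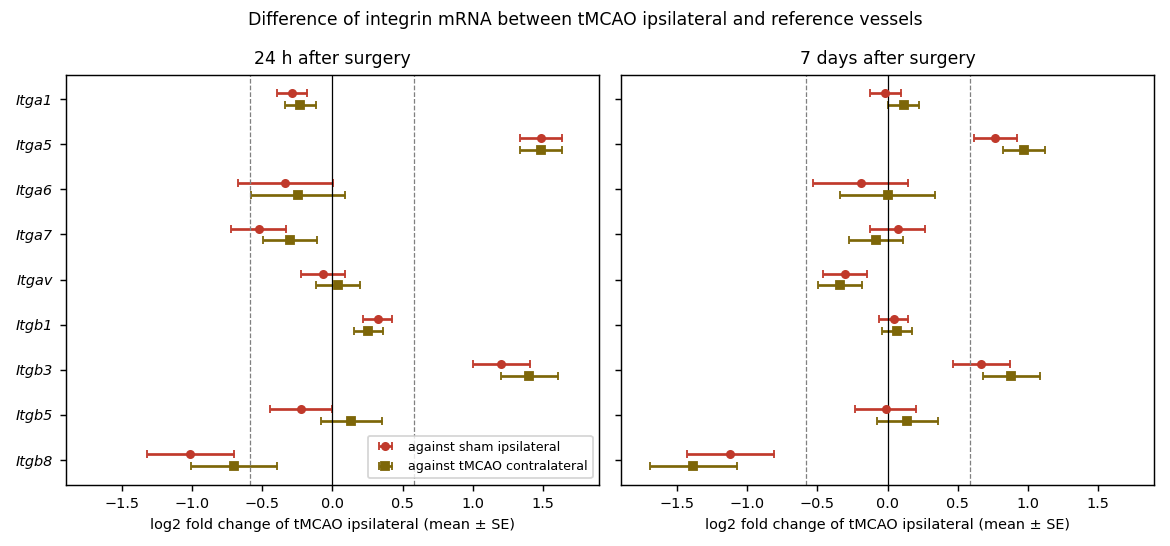
Log2 fold change (mean ± SE, limma) of the tMCAO ipsilateral libraries for each subunit at 24 h (left) and 7 days (right), against sham ipsilateral (circles) and tMCAO contralateral (squares), with 3 libraries a group; dashed lines are the limits of 1.5-fold. Itga5 and Itgb3 lie beyond the upper limit in all 4 comparisons, and Itgb8 beyond the lower limit against both references.

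Itgb1, the beta chain that pairs with alpha1, alpha5, alpha6 and alpha7, moved less than Itga5 (ENSMUSG00000025809, chromosome 8 from 128685654 to 128733200, plus strand). At 24 h its normalized counts were 19440, 23474 and 21131 in the tMCAO ipsilateral libraries and 16771, 16794 and 17449 in the sham ipsilateral libraries. The contralateral libraries of 24 h held 17177, 17671 and 18711 after tMCAO and 20751, 17599 and 17827 after sham. The stroke libraries were therefore above the sham libraries of the same side, but 1 sham contralateral library lay within their range. The log2 fold change against sham ipsilateral was 0.32 (SE 0.10), below the limit for a call, and at 7 days it was 0.04 (SE 0.10) with 18047, 18726 and 16699 against 17676, 16856 and 17279 normalized counts. Actn1, an actin crosslinker of adhesion sites, was the gene most like Itgb1 (r = 0.829), followed by Canx (0.825) and Calu (0.824).

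Among the laminin and collagen receptors, Itga7, a laminin-binding chain known from smooth muscle and striated muscle, differed between the times (ENSMUSG00000025348, chromosome 10 from 128933818 to 128958282, plus strand). The tMCAO ipsilateral libraries held 867, 724 and 1043 normalized counts at 24 h and 1198, 2111 and 1925 at 7 days. At 24 h the sham ipsilateral libraries held 1133, 1159 and 1483, the tMCAO contralateral 952, 1021 and 1263 and the sham contralateral 1828, 1609 and 1770. At 7 days the 9 other libraries lay between 1391 and 2168. At 24 h the values thus stepped down from sham contralateral to tMCAO ipsilateral, with neighbours from sham ipsilateral on overlapping. The stroke ipsilateral libraries were lower than sham ipsilateral at 24 h without overlap (log2 fold change -0.52, SE 0.20), short of the limit, and differed by 0.07 (SE 0.20) at 7 days. From 24 h to 7 days Itga7 was called higher in the tMCAO ipsilateral hemisphere (0.96, SE 0.20), with differences of 0.75 in tMCAO contralateral, 0.37 in sham ipsilateral and 0.04 in sham contralateral libraries. It was most like Lbh (r = 0.932), Synpo2l (0.909) and Gdf11 (0.904) over the 24 libraries.

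Itga1, the alpha chain of a collagen and laminin receptor, was at 5177, 6669 and 5810 normalized counts in the tMCAO ipsilateral libraries at 24 h and at 7272, 6964 and 7194 in the sham ipsilateral libraries (ENSMUSG00000042284, chromosome 13 from 114953096 to 115101964, minus strand). The groups did not overlap, but the log2 fold change of -0.29 (SE 0.11) was short of the limit, and at 7 days it was -0.02 (SE 0.11). Itga6, whose gene the deposited table places on chromosome 2 from 71786940 to 71856771 on the plus strand (ENSMUSG00000027111), had the widest spread within groups. Its libraries ranged from 3669 to 6006 after tMCAO and from 4754 to 7821 after sham on the ipsilateral side at 24 h, and from 4633 to 6426 and 4105 to 9135 at 7 days. The log2 fold changes of -0.33 and -0.19 were smaller than their SE of 0.34. Itga1 was most like Dcp1a (r = 0.882) and Tanc1 (0.829), and Itga6 most like Trim16 (0.93) and Asb4 (0.917).

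In the alpha V group, Itgav itself fell between the times rather than differing from sham at 24 h (ENSMUSG00000027087, chromosome 2 from 83724397 to 83806916, plus strand). Its normalized counts were 929, 960 and 869 in the tMCAO ipsilateral libraries at 24 h and 599, 575 and 587 at 7 days, against 896, 919 and 1077 and 693, 568 and 969 in the sham ipsilateral libraries. The log2 fold change against sham was -0.07 (SE 0.16) at 24 h and -0.31 (SE 0.16) at 7 days, with overlap at both. From 24 h to 7 days it was called lower in the tMCAO ipsilateral hemisphere (-0.65, SE 0.16), while the difference was -0.41 in sham ipsilateral, -0.35 in sham contralateral and -0.26 in tMCAO contralateral libraries. Centring each library on its median, which moved all genes of that comparison by 0.105 and left Itgav at -0.54, took this call away. Itgb5, the most abundant partner of alpha V besides beta1, ranged from 1584 to 3038 after tMCAO and from 2298 to 3101 after sham at 24 h, and from 1731 to 2599 and 1805 to 2304 at 7 days (ENSMUSG00000022817, chromosome 16 from 33829665 to 33949153, plus strand). Its log2 fold changes of -0.22 and -0.01 had an SE of 0.22. Itgav was most like Kpna1 (r = 0.86) and the gap junction gene Gja1 (0.854). Gja1 is 1 of the astrocyte markers, with which Itgav had r = 0.528 as a panel. Itgb5 was most like Rarres2 (0.879) and Rasl12 (0.861).

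Between the tMCAO ipsilateral hemispheres of the 2 times, 3 members were called, with Itga7 higher and Itga5 (-0.72, SE 0.15) and Itgav lower at 7 days, beside 12.2% of all genes (3.72% higher, 8.44% lower). The Itga5 value was -0.58 and no longer called without tMCAO ipsilateral library 2 of 24 h. Itgb3 (-0.37, SE 0.20) and Itgb8 (-0.48, SE 0.31) were not called between the times. For the difference of the stroke effects between the times (tMCAO against sham at 7 days minus 24 h), 1 member was called, Itga5 with -0.72 (SE 0.21), beside 8.12% of all genes (2.43% higher, 5.68% lower). This value comes from the libraries on which the members were chosen, and the call was lost in 8 of 12 fits with 1 library left out (-0.89 to -0.58), after median centring (-0.62) and with only the compared groups in the fit.

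The makeup of the subunit mRNA differed accordingly. Itga5 made up 27.92%, 30.34% and 31.31% of the 5 alpha chains per kb in the tMCAO ipsilateral libraries at 24 h, in ascending order, and 17.38%, 18.1% and 19.74% at 7 days, against 8.45% to 12.65% in the other 18 libraries. The ratio of Itga5 to Itgav, the alpha chains of the main fibronectin and vitronectin receptors, was 5.489 to 7.692 at 24 h and 5.548 to 7.173 at 7 days after stroke, where the others lay between 2.17 and 3.55. Unlike the level of Itga5, this ratio overlapped between the times, as Itgav was lower at 7 days. Within the sum of Itgb3, Itgb5 and Itgb8, Itgb3 held 8.45% to 20.84% at 24 h and 8.12% to 14.97% at 7 days after stroke, against 4.36% to 8.14% elsewhere, so the lowest stroke library of 7 days lay just below the highest of the others. Itgb8 held 0.75% to 1.7% at 24 h and 0.69% to 1% at 7 days after stroke and 1.12% to 5.36% in the 18 others, so that the libraries of 24 h overlapped the others. Even there Itgb5 remained the main chain, with 77.46% to 91.18% in the stroke ipsilateral libraries. The 5 alpha chains together came to 0.4373 to 0.6524 of Itgb1 per kb after stroke and to 0.44 to 0.805 elsewhere, and these overlapped. All these shares follow from the counts above and are no separate evidence.

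**Figure D3:**
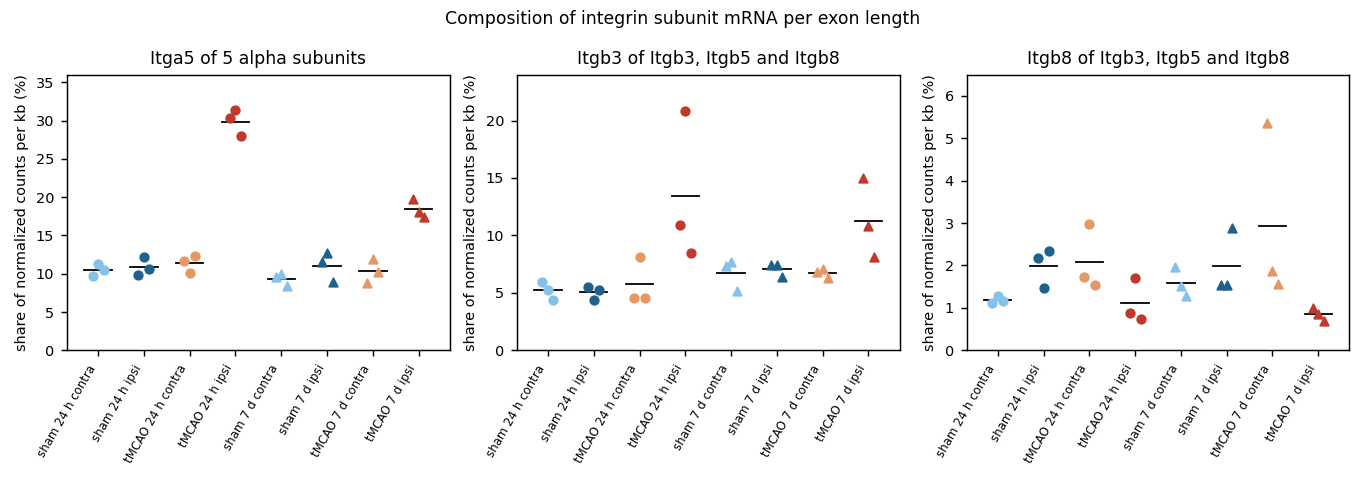
Shares (%) of normalized counts per kb of exon in each library, for Itga5 among the 5 alpha chains (left), Itgb3 (middle) and Itgb8 (right) among Itgb3, Itgb5 and Itgb8; points are libraries (circles 24 h, triangles 7 days) and lines are means of 3. The Itga5 share is 17.38% to 31.31% in the tMCAO ipsilateral libraries and at most 12.65% in the others.

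Cell type markers moved along with several members. Neutrophil and monocyte markers summed to 3508 to 6701 normalized counts in the tMCAO ipsilateral libraries of 24 h (8 of 8 genes called higher) and to 347 to 1320 in sham ipsilateral. At 7 days the sums were 936 to 5011 (2 of 8 called higher) and 351 to 1882. Over the 24 libraries the mean log2 level of this panel had r = 0.812 with Itga5 and 0.613 with Itgb3, where each point is a library and shares its depth. T cell markers, all 4 of which were under the filter on low values, summed to 32 to 42 after tMCAO and 5 to 13 after sham at 24 h and to 23 to 38 and 15 to 23 at 7 days, and had r = 0.733 with Itga5 and 0.657 with Itgb3. Proliferation markers (4 of 5 tested) had r = 0.719 and 0.68. They summed to 86 to 198 after tMCAO and 58 to 85 after sham at 24 h, with 0 called in limma, and to 273 to 336 and 54 to 63 at 7 days, with 4 called higher, among them Mki67 (2.41, SE 0.42) and Top2a (2.69, SE 0.59). The part of these cells and of proliferation in the Itga5 and Itgb3 values was not tested. Platelet markers, whose defining genes are few here, summed to 144 to 185 after tMCAO and 97 to 132 after sham on the ipsilateral side at 24 h, and 0 of 5 tested genes were called in limma. At 7 days the sums were 123 to 164 and 109 to 199. The platelet chain Itga2b, given below among the other integrins, was called higher at 24 h. The part of platelets in the Itgb3 values was not tested. Relative to the endothelial panel, Itga5 was at -2.38 (log2) after tMCAO and -4.01 after sham at 24 h, and at -3.41 and -4.04 at 7 days, without overlap. Relative to the neutrophil and monocyte panel, Itga5 was instead lower after stroke. It was at 3.09 after tMCAO and 4.39 after sham at 24 h without overlap, and at 3.31 and 4.30 at 7 days with overlap.

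For Itgb8, the astrocyte panel moved with it. The panel's mean log2 level was 9.71 after tMCAO and 10.51 after sham on the ipsilateral side at 24 h, with sums of 10911 to 16381 against 16556 to 24334 and 5 of 8 markers called lower. At 7 days it was 9.50 and 10.26, with sums of 9892 to 12931 against 14640 to 30712 and 3 of 8 called lower. The marker Gfap was instead higher then, at 3453, 3934 and 5327 normalized counts after tMCAO and 1075, 1008 and 3327 after sham. Itgb8 minus the panel was -3.62 after tMCAO and -3.41 after sham at 24 h, and -3.90 and -3.54 at 7 days (log2), so the groups were closer relative to the panel than in Itgb8 itself. They still did not overlap at 24 h (-3.711 to -3.539 against -3.474 to -3.313), and overlapped at 7 days. Over the 24 libraries both together had r = 0.895, and the genes most like Itgb8 were Cntn1 (r = 0.929), Gdap1 (0.91) and Ntrk2 (0.906), genes of neurons and glia. The tMCAO contralateral library 1 of 7 days was highest in both, with 246 for Itgb8. Neuron markers also fell (6 of 8 called lower at 24 h and 8 of 8 at 7 days, r = 0.815 with Itgb8). The part of glial and neuronal RNA in the Itgb8 values was not tested.

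For Itga7, the mural panel was at 12.56 (log2) after tMCAO and 12.98 after sham at 24 h, with 2 of 9 markers called lower, and at 12.55 and 12.92 at 7 days with 0 of 9 called in limma. Itga7 minus the panel was -2.80 and -2.69 at 24 h and -1.82 and -2.27 at 7 days, with overlap at both. Across the 24 libraries r with this panel was 0.425, lower than that of Itgb8 with astrocytes. The panel joins smooth muscle and pericyte genes, which differed in their course. At 24 h the smooth muscle gene Acta2 held 28771, 24099 and 25850 normalized counts in sham contralateral libraries. It held 18893, 19453 and 19684 in sham ipsilateral and 13645, 9524 and 24437 in tMCAO ipsilateral libraries. In the same order, the pericyte gene Pdgfrb held 8163, 9743 and 8021, then 7317, 10949 and 8284, then 10345, 7311 and 10890. The part of mural cell content was not tested.

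**Figure D4:**
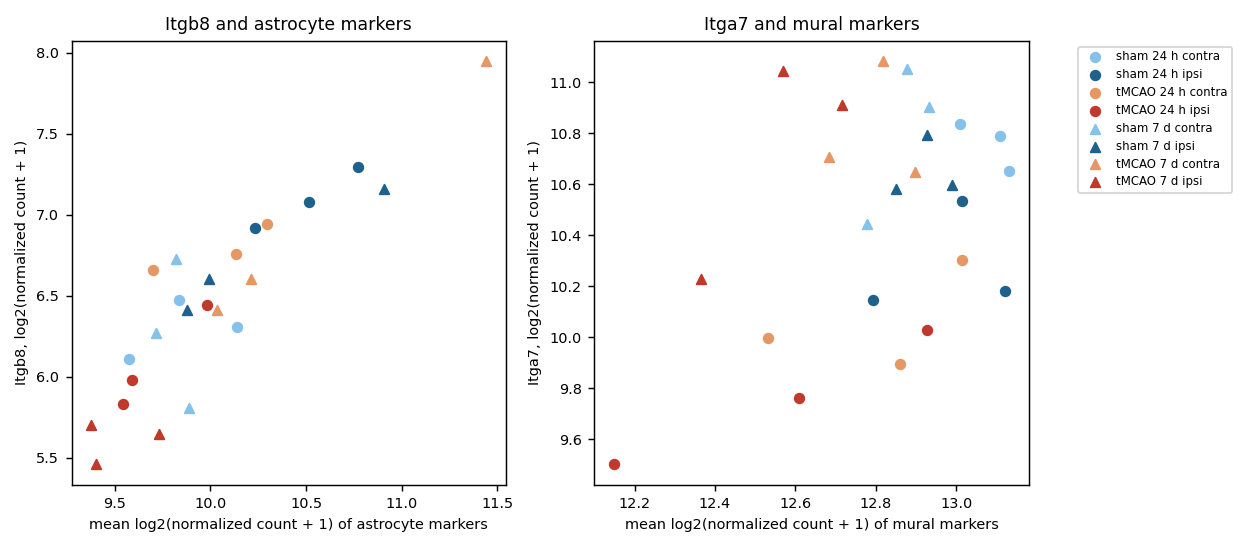
Level of Itgb8 against the mean of 8 astrocyte markers (left) and of Itga7 against the mean of 9 mural cell markers (right), both as log2(normalized count + 1); each point is 1 of the 24 libraries, coloured by surgery and hemisphere, with circles for 24 h and triangles for 7 days. Itgb8 rises along with the astrocyte markers (r = 0.895) with the tMCAO contralateral library of 246 normalized counts at the upper right, and Itga7 is scattered more widely (r = 0.425).

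Among the control groups, limma called 0 of 9 members in each of 7 comparisons. Those with sham ipsilateral libraries share libraries on which the members were selected, so their values are a description. Unadjusted p-values under 0.05 were found for 2 members between the sham hemispheres at 24 h, 0 at 7 days, 1 between the contralateral hemispheres of tMCAO and sham mice at each time, and 1 (sham ipsilateral), 2 (sham contralateral) and 1 (tMCAO contralateral) from 24 h to 7 days. The shares of all genes at that unadjusted threshold were 2.3% and 2.25% between the sham hemispheres, 2.53% and 10.3% between the contralateral hemispheres, and 14.1%, 10.8% and 16.5% between the times in the same order. By adjusted calls, 0% of all genes were called between the sham hemispheres, 0% and 0.0313% between the contralateral hemispheres and 0.476%, 0.332% and 0% between the times. The libraries of 11.5% of all genes did not overlap between the sham hemispheres at 24 h, and those of 8.2% between the contralateral hemispheres at 24 h. Itgb8 was higher in the sham ipsilateral than in the sham contralateral hemisphere at 24 h without overlap (log2 fold change 0.80, SE 0.31, limma adjusted p = 1), and the astrocyte panel was also higher there without overlap (10.232 to 10.769 against 9.574 to 10.14). Itga7 was lower there (-0.47, SE 0.20, limma adjusted p = 1) and in the tMCAO against the sham contralateral hemisphere at 24 h (-0.69, SE 0.20, limma adjusted p = 1), again without overlap. In the tMCAO contralateral hemisphere Itga7 was at 952 to 1263 normalized counts at 24 h and at 1603 to 2168 at 7 days, a difference that did not pass (0.75, SE 0.20, limma adjusted p = 0.123). The Itgb8 difference between the contralateral hemispheres at 7 days (0.72, limma adjusted p = 0.438) rested on the library of 246 and was 0.24 without it. Itga5 and Itgb3 ranged from -0.21 to 0.28 on the log2 scale over the 7 comparisons.

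Within groups, several members varied together or in opposite directions. In 7 of 8 groups the library highest in Itga6 was the lowest in Itgb5, and in 7 of 8 it was also the highest in Itgav. The deviations of single libraries from their group means had r = 0.83 for Itga6 with Itgav, 0.72 for Itgav with Itgb8, -0.80 for Itga5 with Itgb5 and -0.68 for Itga6 with Itgb5 (24 libraries, as a description, since all members of a library share its depth and tissue content). Thus tMCAO contralateral library 2 of 24 h held 9266 of Itga6 and 1472 of Itgb5. The other 2 libraries of its group held 5582 and 3796 of Itga6 and 2328 and 2442 of Itgb5. Genes outside the members set the same library apart, such as Vcl with 8631 against 4337 and 4594 and Pdgfrb with 5408 against 8387 and 8746. How many of all genes varied in this way was not counted. Itgb5 had r = 0.674 with the microglia panel, 0.666 with the fibroblast panel and 0.645 with the mural panel over the 24 libraries, and Itga6 had 0.581 with the astrocyte panel. Their part in the spread was not tested.

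The partners and ligands of these receptors were described over lists drawn up by function, with earlier results of these data known. The adjusted p-values given for genes of these lists are therefore a description. Among 10 other integrin subunits measured (of 11 listed), 3 were higher after stroke at 24 h and 0 lower, with a median log2 fold change of 0.18. Itga2, the alpha chain of another collagen receptor, rose from 4 to 27.33 normalized counts (2.54, SE 0.46, limma adjusted p = 4.43e-04), and Itgb7, a chain of lymphocytes, rose by 1.88 (SE 0.26). Itga2b, the platelet partner of beta3, rose from 43.67 to 137.7 (1.62, SE 0.41, limma adjusted p = 0.00569). At 7 days 1 was higher, Itgb7 (0.77, SE 0.26, limma adjusted p = 0.0457). The 4 leukocyte integrins measured (Itgb2, Itgam, Itgax and Itgal, of 6 listed) were all called higher at both times, with medians of 2.47 and 1.54. They are chains of neutrophils, monocytes and lymphocytes, and they moved with the neutrophil and monocyte markers given above.

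Of 13 matrix proteins with an RGD site or an otherwise known integrin-binding role, 3 rose and 2 fell at 24 h (median log2 fold change -0.02), and 1 rose and 4 fell at 7 days (median -0.07). Tnc, which encodes tenascin C, a matrix protein of injured tissue, held 1465, 2351 and 879 normalized counts in the tMCAO ipsilateral libraries of 24 h and 15, 18 and 37 in sham ipsilateral, and 23 to 29 at 7 days after stroke. Thbs1, encoding thrombospondin 1, rose by 2.66 (SE 0.51, limma adjusted p = 6.84e-04), and Cyr61, an immediate early matricellular gene, by 2.43 (SE 0.46). Vtn, the vitronectin gene expressed by pericytes and bound by alpha V beta3 and beta5, fell at both times (-0.67, SE 0.20, limma adjusted p = 0.0176, and -1.003, SE 0.20, limma adjusted p = 0.00162), from 29870 to 18640 and from 33380 to 16500 normalized counts. Postn, encoding periostin, also fell at both (-1.33 and -0.76). Fn1, encoding fibronectin, the ligand of alpha5 beta1, was called higher than sham ipsilateral at 7 days (0.65, SE 0.18, limma adjusted p = 0.0144). Its mean was 66510 after tMCAO (85712, 52953 and 60856) and 41940 after sham (46034, 34857 and 44931). The libraries other than tMCAO ipsilateral held 34857 to 49067 at 7 days, below their 52804 to 68554 at 24 h. Of the tMCAO ipsilateral libraries of 7 days, those with 52953 and 60856 lay within that range of 24 h. At 24 h its libraries held 61660, 60352 and 56663 after tMCAO and 61568, 56426 and 60755 after sham, and the difference of the 2 stroke effects did not pass (0.65, SE 0.25, limma adjusted p = 0.101). Edil3, which encodes an RGD protein, fell at 7 days (-1.75, SE 0.45), as did Npnt (-0.66, SE 0.20). The normalized counts of Edil3 were low then, at 14, 27 and 18 after tMCAO and 56, 49 and 105 after sham. The part of neuronal RNA in the Edil3 values was not tested.

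In the basement membrane list, 3 of 16 genes rose and 7 fell at 24 h (median -0.49), and 0 were called at 7 days in limma (median 0.13). Those that rose were the abundant chains Col4a1 (1.02, SE 0.31, limma adjusted p = 0.0175), which went from 32970 to 68090 normalized counts, Col4a2 (0.996, SE 0.30) and the laminin chain Lamb1 (0.99, SE 0.25). Those that fell were the less abundant collagen IV chains Col4a3, Col4a4, Col4a5 and Col4a6 and the laminin chains Lama2, Lama3 and Lamc3, with Col4a6 (-1.34, SE 0.32) and Col4a4 (-1.19, SE 0.28) lowest. Of 7 genes of latent TGF-beta, the cargo that alpha V integrins release, 3 rose at 24 h (median -0.14) and 0 were called at 7 days (median -0.22). They were Nrros (0.93, SE 0.12), Lrrc32 (0.84, SE 0.26) and Tgfb1 itself (0.66, SE 0.17, limma adjusted p = 0.00663). Nrros tethers latent TGF-beta on microglia and macrophages, and Lrrc32 encodes another such tether. Lrrc32 held 2935, 3464 and 5098 normalized counts in the sham ipsilateral libraries of 24 h, and the cells it came from were not tested. Matrix co-receptors had 1 of 9 called at 24 h, the hyaluronan receptor Cd44 (2.77, SE 0.53, limma adjusted p = 7.03e-04), which rose from 87.33 to 580 normalized counts, and 0 at 7 days.

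Inside the cell, 0 of 26 adhesion adaptors were called higher and 1 lower at 24 h, Tns1 (-0.62, SE 0.15, limma adjusted p = 0.00463), a tensin that links beta chains to actin, and 0 were called at 7 days. The list's median was 0.13 and 0.05. Talin 1 (Tln1, log2 fold change 0.16, SE 0.12), kindlin 2 (Fermt2, -0.22, SE 0.12) and integrin-linked kinase (Ilk, 0.13, SE 0.08), which activate or anchor the beta tails, were not called at 24 h. After median centring 2 were lower at 24 h and 1 higher at 7 days. The background shares for all these counts are the 18.3% at 24 h and 13.2% at 7 days given above.

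**Figure D5:**
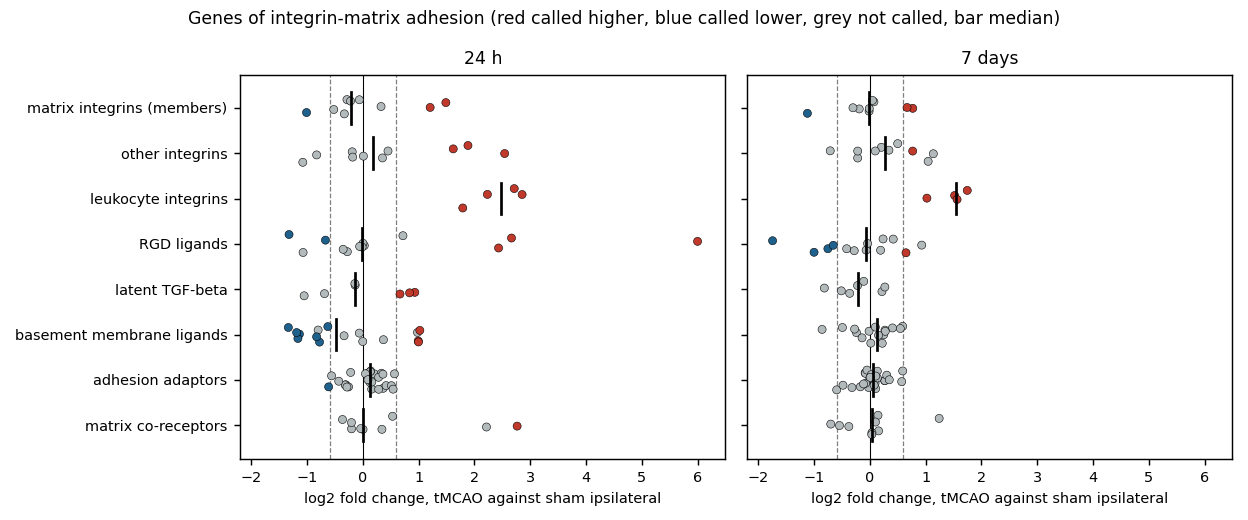
Log2 fold changes of tMCAO against sham ipsilateral at 24 h (left) and 7 days (right) for the members and 7 lists of related genes; each point is 1 gene (red called higher, blue called lower, grey not called), the black bar is the list's median and dashed lines are the limits of 1.5-fold. The leukocyte integrins are all above the limit at both times, whereas 1 of 26 adhesion adaptors is beyond it and called at 24 h.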

How the data were processed

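RNA of mouse brain microvessels was measured in 24 libraries. The deposited values are a score: after trimming and alignment to mm10 with STAR, from which reads matching several genes were left out, the authors deposited DESeq2-normalized counts rounded to whole numbers, relative to the 24 libraries together. Per the labels' processing notes the authors used STAR 2.5.2b, featureCounts 1.5.1 and DESeq2 1.6.2, while the methods text gives other versions. Libraries were prepared with a stranded kit.

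Groups came from the labels. After 1 was added, log2 values were fitted in R 4.3.3 with limma 3.58.1, with all 8 groups and limma's trend option, for genes with a mean above 5. A gene was called with a Benjamini-Hochberg adjusted p under 0.05 together with a fold change beyond 1.5 in either direction. Contrasts were stroke against sham and against contralateral, between times and between controls. Reads per library were estimated from the gaps between low values. Values per kb used exon lengths of the GENCODE annotation. The residuals of same-numbered sham libraries of the hemispheres correlated in every pair (0.145 to 0.41 at 24 h, 0.325 to 0.467 at 7 days). The main fit used no pairing, also between the sham hemispheres, and the replicate number entered only as a block among the alternatives. The labels give only the numbers. The script was tested on simulated data.

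All 9 members were named. From each list of related genes the 2 largest increases and the 2 largest decreases among called genes were named, and for each member the 3 genes of highest correlation or fewer. Other genes, such as Fn1, Tln1, Fermt2 and Ilk and those behind small counts, were chosen after their values were seen. The members and lists were chosen with earlier results of these data known. Itgb6, Itgad, Itgae, Lamb3, Fermt1 and Gp1ba were not analysed here. Figures were drawn with matplotlib 3.10.9. Alternatives were another pseudocount, other filters, median centring, a replicate block, only the compared groups, no fold limit and each library left out.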

Additional observations from a re-analysis of the deposited data

Results flagged for a closer look

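The stroke effect of Itga5 on the ipsilateral side (tMCAO against sham) is listed here because limma called it smaller at 7 days than at 24 h, by -0.72 (log2, SE 0.21). Itga5 was chosen with these same values known, so the difference is a description and not a test. The tMCAO ipsilateral libraries held 3814 normalized counts on average at 24 h and 2290 at 7 days, while the sham ipsilateral libraries held 1346 and 1337. In this contrast 8.12% of all genes and 1 of the 9 members were called. The call of Itga5 was lost after median centring (-0.62), which moved all genes by 0.104, with only the compared groups in the fit (-0.72) and in 8 of 12 fits with 1 library left out, where the value ranged from -0.89 to -0.58.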

How the results depend on the processing

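No member or list reversed its direction among called values under any alternative. Against sham ipsilateral at 24 h, 5 members were called without the limit on the fold change (Itga5, Itga7, Itgb1, Itgb3 and Itgb8), and 2 to 4 with 1 library left out. At 7 days 1 to 3 were called with 1 library left out. The lowest count, with Itga5 alone, came without sham ipsilateral library 3, where Itgb3 was 0.51. The call of Itgb3 at 7 days was also lost without sham ipsilateral library 2 (0.69), without tMCAO ipsilateral library 1 (0.52) and with only the compared groups in the fit (0.67), and that of Itgb8 against the contralateral hemisphere at 7 days with only the compared groups (-1.39). Itga7 was called lower at 24 h after median centring (-0.59) and without tMCAO ipsilateral library 3 (-0.66). The difference of the stroke effects between the times gave 0 members called after median centring and 0 with only the compared groups, and 0 to 2 with 1 library left out, of which 2 (Itga5 and Itga7) came without tMCAO ipsilateral library 1 of 7 days. Between the tMCAO ipsilateral hemispheres of the times, 2 to 3 members were called with 1 library left out. Adhesion adaptors called came to 2 at 24 h and 1 at 7 days after median centring. The cause of these changes was not tested. Adding 0.5 in place of 1, testing all genes without a filter, or raising the minimum mean to 20 changed no count of members called by over 1.5 times.

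With a replicate block, 3 members were called against sham ipsilateral at 24 h and 3 at 7 days, 2 and 3 against the contralateral hemisphere and 0 between the sham hemispheres, and the block changed no other call. Same-numbered libraries of tMCAO and sham mice did not deviate together (residual correlations of -0.252 to -0.113 at 24 h and -0.157 to 0.15 at 7 days), nor did every pair of the tMCAO hemispheres reach 0.1 (0.066 to 0.36 at 24 h and 0.059 to 0.309 at 7 days), so the number alone is shared. With 3 libraries a group and counts of 43 to 246, Itgb8 is the least precise of the called members. The depth of the libraries was estimated, and intervals from counting error were not given.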
